A study of Mus musculus with 18 samples.

Results

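The 8 genes described here code for a ubiquitin precursor, for the ATPase p97 and for proteins that bind p97 or carry and attach ubiquitin: Ubb, Zfand2a, Zfand5, Vcp, Ufd1l, Nploc4, Stub1 and Ubqln1. They were taken by gene name from the 20207 genes listed for each of 18 mRNA-seq libraries, and all 8 passed the filter for testing, which kept the 12731 genes that had a read in each of the libraries. The libraries came from NIH3T3 cells, an established line of mouse fibroblasts, which carried a stable DD-GFP transgene, a mutant FKBP domain (the destabilizing domain, DD) joined to superfolder GFP, and had been sorted for high GFP. The ligand S1 (Shield-1), which stabilizes the folded DD, stayed in the medium of every group, controls and stressed cells alike. Whether the fusion protein stayed folded under the stresses was not tested. The 6 groups of 3 libraries were unperturbed control cells at 37°C without tunicamycin, cells at 45 and 135 min of heat shock (HS) at 42°C, and cells at 45, 135 and 405 min of tunicamycin (5 µM per the study), a drug that blocks N-glycosylation and so disturbs protein folding in the endoplasmic reticulum (ER). The cells formed 1 sorted population of 1 line, and the labels number the replicates without saying that they were separate cultures, so p-values measure the spread between these libraries.

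The libraries held 33415592 to 66478268 reads on genes, and 3 reads corresponded to 0.0451 to 0.0898 CPM (counts scaled to the size of the library), against a lowest value of 4.94 CPM among the 8 genes. The fibroblast markers Col1a1, Vim and Thy1 had median levels of 2030, 2520 and 136 RPKM (CPM per kilobase of transcript). Among markers of other cell types, Epcam (epithelial), Ptprc (blood) and Myog (muscle) had a median of 0. Cdh1 (epithelial), Pecam1 and Cdh5 (endothelial) and Ckm (muscle) had medians of 0.00918 to 0.0463 RPKM. Cd68 (macrophage) and Tubb3 (neuronal) were not absent, with medians of 5.99 and 2.98 RPKM. The stress labels were compared with the levels of known targets. Hsph1, a cytosolic chaperone of the heat shock response, was 10.1-fold higher at 135 min of HS, and Hspa5, the main ER chaperone, was 13.2-fold higher at 405 min of tunicamycin (adjusted p = 0.00792 and 4.64e-06, edgeR). Hspa5 had, however, 491, 421 and 333 CPM in the libraries at 135 min of tunicamycin, all below the 656, 684 and 736 CPM of the controls (adjusted p = 0.135, edgeR). The ER stress targets Ddit3 and Herpud1 were induced at 405 min of tunicamycin and already at 45 min, 7.59-fold and 4.78-fold (adjusted p = 0.00084 and 0.00077, edgeR). At 135 min of tunicamycin neither was called, at 2.91-fold and 1.75-fold (adjusted p = 0.0706 and 0.125, edgeR). Both were also induced at 135 min of HS, 5.01-fold and 6.31-fold (adjusted p = 0.0122 and 0.00534, edgeR), as was Hspa5, 1.94-fold (0.0312). Libraries differed in how the level of a gene depended on transcript GC content (rho, Spearman's rank correlation, over 12431 genes from -0.61 to 0.59, each level taken against the gene's mean over all libraries). Control replicate 1, HS 45 min replicate 3, tunicamycin 45 min replicate 3 and tunicamycin 135 min replicate 1 stood apart from the other 2 libraries of their groups in this trend, and the 3 libraries at 135 min of HS differed among themselves.

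Ubiquitin is a small protein that is joined to other proteins as single units or chains, and chains mark most of their substrates for the proteasome. Ubb codes for a string of ubiquitin units that are cut apart after translation and is a classical stress-inducible ubiquitin gene. p97, coded by Vcp, uses ATP to pull ubiquitylated proteins out of complexes, chromatin and the ER membrane. Ufd1l and Nploc4 code for the partners of the heterodimer that brings ubiquitylated substrates to p97, an essential step of ER-associated degradation (ERAD). Zfand2a (also called AIRAP) and Zfand5 code for AN1-type zinc finger proteins that bind the proteasome or p97, Stub1 (CHIP) for the ubiquitin ligase that works with Hsp70 and Hsp90, and Ubqln1 for a shuttle protein that binds ubiquitin chains and the proteasome.

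After 405 min of tunicamycin, 4 of the 8 genes were induced (Ubb, Ufd1l, Stub1 and Ubqln1) and none was repressed, beside 23.3% induced and 23.5% repressed among all genes tested (46.8% in either direction). After 135 min of HS, 2 of the 8 were induced (Zfand2a and Ubqln1) and none was repressed, beside 4.75% and 2.64% of all genes (7.39% in either direction). At 45 min of HS none of the 8 was called, as was none of the 12731 genes (0%), at 45 min of tunicamycin none (6.17% of all genes called in either direction) and at 135 min of tunicamycin none (0.134%, or 17 genes, and 0 genes with a block for the replicate number, with which 26.7% had an unadjusted p under 0.05). The 4 of 8 at 405 min were close to the share of all genes, and the 0 at 45 min of HS became 6 without HS 45 min replicate 3, beside 45.4% of all genes. Induced and repressed mean an adjusted p under 0.05 in the quasi-likelihood test of edgeR, adjusted by Benjamini-Hochberg over the 12731 genes. At an unadjusted p under 0.05 the members were 0 at 45 min and 6 at 135 min of HS, and 1, 1 and 4 at 45, 135 and 405 min of tunicamycin, beside 19.5%, 29.7%, 25.6%, 18.6% and 54.6% of all genes. DESeq2 called 0, 5, 1, 0 and 4 of them in the same order of comparisons, beside 3.54%, 17%, 14.5%, 5.22% and 49.5% of all genes. The median log2 fold change of the 8 was -0.10 at 45 min of HS, -0.30 at 135 min of HS, 0.01 at 45 min, -0.04 at 135 min and 0.25 at 405 min of tunicamycin, while that of all genes tested lay between -0.03 and -0.00288. All of these comparisons share the 3 control libraries.

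**Figure D1:**
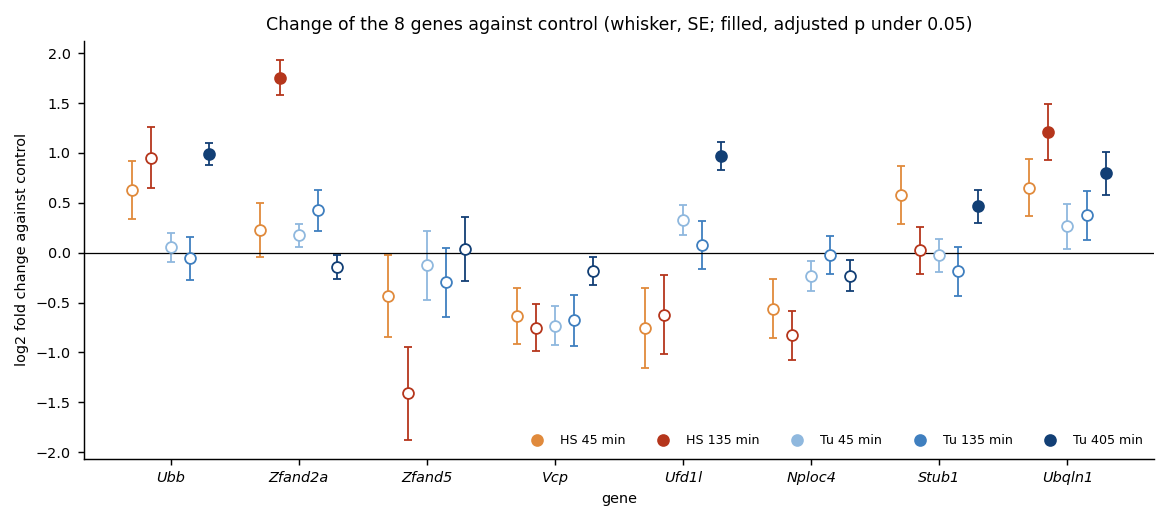
Log2 fold change against control (vertical axis) of each gene (horizontal axis) in the 5 stressed groups, shown by colour, with the standard error (SE) as whisker and filled points where the adjusted p was under 0.05. Filled points are Zfand2a and Ubqln1 at 135 min of HS and Ubb, Ufd1l, Stub1 and Ubqln1 at 405 min of tunicamycin, and the open Vcp points lie below 0 in all 5 groups.

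By the coordinates in the files (build mm9), Ubb lies on chromosome 11 from 62365006 to 62366714, Zfand2a on chromosome 5 from 139947171 to 139960445, Zfand5 on chromosome 19 from 21346768 to 21356779 and Vcp on chromosome 4 from 42992836 to 43013379. Ufd1l lies on chromosome 16 from 18812419 to 18835348, Nploc4 on chromosome 11 from 120241685 to 120298982, Stub1 on chromosome 17 from 25967581 to 25970306 and Ubqln1 on chromosome 13 from 58278872 to 58316953. Compared per length, Vcp was the most abundant of the 8 in control cells at 166 ± 20.6 RPKM (SD, n = 3), above 98.2% of the 20207 genes, followed by Ubb at 109 ± 4.55, Stub1 at 58.9 ± 11.9, Ubqln1 at 42.8 ± 13.9, Nploc4 at 35.7 ± 4.90, Ufd1l at 16.3 ± 2.88, Zfand2a at 13.4 ± 0.426 and Zfand5 at 7.40 ± 3.63 RPKM. All 8 lay above at least 69.98% of the listed genes in control cells. Ubb has a repeated coding sequence and related pseudogenes, and reads that match several of them could have been divided by the counting. This was not tested for any of the 8, and the Ubb level is to be read with that limit.

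The stretch just before each RefSeq start of the 8 genes was searched for short motifs of the stress pathways. RefSeq windows (GRCm38.p6, 250 bases before to 50 after a start) were held for all 8 genes, 9 windows in all because Ubb has 2 starts, and the 250 bases before each start were searched on both strands. The motifs were GAANNTTC and TTCNNGAA, the paired half-sites of a heat shock element, each of which reads the same on both strands, the ER stress response element, TGACGTG, a CRE-like element, and TGATGNAA, an amino acid response element. A heat shock half-site pair of either kind was found in 4 of the 8 genes (Zfand2a, Vcp, Nploc4 and Stub1), beside 12.8% of all 32851 windows. The count is of genes and the share is of windows, and Ubb had 2 windows. In mm9 all 250 bases of the Stub1 stretch lay in exons of Stub1, inside the Stub1 span given above, so its match was not outside the gene. Nploc4 had 3 half-sites in a row, with the GAANNTTC and TTCNNGAA matches overlapping, as did 0.466% of windows. TGACGTG was found before Vcp and before the second start of Ubb (1.65% of windows), TGATGNAA before the second start of Ubb (3.45%), and the ER stress response element before none of them (0.113%). In mm9, 170 of the 250 bases before the second start of Ubb lay in exons of Ubb, and both Ubb matches were among them. The stretches below are those of the 2 genes induced at 135 min of HS and of 2 genes that held a heat shock half-site pair and were not induced there. Each is written 5′ to 3′ along the gene, matched to mm9 exactly once and is given there without bases that the GENCODE annotation of that build places in an exon. Capitals mark the motif matches.
Zfand2a, chr5:139960504-139960695 (mm9), minus strand, from base -250 to -59 before the start: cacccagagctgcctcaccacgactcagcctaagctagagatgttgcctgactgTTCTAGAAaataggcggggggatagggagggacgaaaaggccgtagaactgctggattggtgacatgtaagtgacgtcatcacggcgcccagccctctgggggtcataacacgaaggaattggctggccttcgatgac
Ubqln1, chr13:58317015-58317264 (mm9), minus strand, from base -250 to -1: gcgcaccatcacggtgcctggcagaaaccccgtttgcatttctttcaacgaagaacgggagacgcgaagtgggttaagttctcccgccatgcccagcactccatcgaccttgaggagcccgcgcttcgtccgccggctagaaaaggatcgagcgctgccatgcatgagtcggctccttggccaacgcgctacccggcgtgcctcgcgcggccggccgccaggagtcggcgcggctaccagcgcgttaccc
Nploc4, chr11:120299023-120299264 (mm9), minus strand, from base -250 to -9: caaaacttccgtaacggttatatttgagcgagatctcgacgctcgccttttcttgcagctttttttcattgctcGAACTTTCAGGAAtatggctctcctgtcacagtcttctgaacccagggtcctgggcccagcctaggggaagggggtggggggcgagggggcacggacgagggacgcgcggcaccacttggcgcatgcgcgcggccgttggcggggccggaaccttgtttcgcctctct
Vcp, chr4:43013380-43013629 (mm9), minus strand, from base -250 to -1: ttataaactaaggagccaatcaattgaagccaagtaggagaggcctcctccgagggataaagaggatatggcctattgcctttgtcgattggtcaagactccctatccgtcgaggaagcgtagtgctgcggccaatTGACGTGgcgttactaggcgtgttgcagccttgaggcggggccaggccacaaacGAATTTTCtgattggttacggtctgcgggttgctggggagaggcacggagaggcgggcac
Zfand2a held 1 TTCNNGAA match, Nploc4 the 3 half-sites, Vcp 1 GAANNTTC and 1 TGACGTG match and Ubqln1 none of the motifs in this window. Of the 2 genes induced at 135 min of HS, 1 thus held a half-site pair, and of the 6 others 3 did, Stub1 within an exon. Variants of the motif strings, such as the tgacgtca in the Zfand2a stretch, were not searched for and are not marked. A match of letters is a description and no site of binding.

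Ubb transcript levels were steady in the control libraries, at 148, 152 and 147 CPM. They were 283, 287 and 303 CPM after 405 min of tunicamycin, where all 3 libraries lay above all 3 controls, as in 29.2% of all genes. This was a 1.99-fold increase (log2 fold change 0.99, SE 0.110, adjusted p = 0.000277, edgeR), and the call was kept in 6 of 6 fits that each left out 1 library. At 45 and 135 min of tunicamycin Ubb stood at 126, 151 and 182 CPM and at 192, 122 and 112 CPM, which overlapped the controls. The libraries of HS were widely spread, at 279, 274 and 139 CPM at 45 min and 163, 373 and 328 CPM at 135 min. At 135 min all 3 lay above the controls, as in 18.1% of all genes, with a log2 fold change of 0.95 (SE 0.306, adjusted p = 0.0898, edgeR), which did not pass the test. Within HS the high Ubb values were those of libraries with a positive GC trend (rho of 0.59 and 0.56 in replicates 1 and 2 at 45 min, 0.57 and 0.15 in replicates 2 and 3 at 135 min), and the low values those of libraries with a negative one (-0.46 and -0.40). With an offset for GC content the log2 fold change at 135 min was 0.80 (adjusted p = 0.0542, edgeR), DESeq2 called it (adjusted p = 0.041), and edgeR called it without HS 135 min replicate 1 (log2 fold change 1.24, adjusted p = 0.0111). In order of mean level the groups ran 405 min of tunicamycin (291 ± 10.8), 135 min of HS (288 ± 110.4), 45 min of HS (231 ± 79.8), 45 min of tunicamycin (153 ± 28.01), control (149 ± 2.48) and 135 min of tunicamycin (142 ± 43.8 CPM, mean ± SD, n = 3), and the ranges of each pair of neighbours overlapped.

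**Figure D2:**
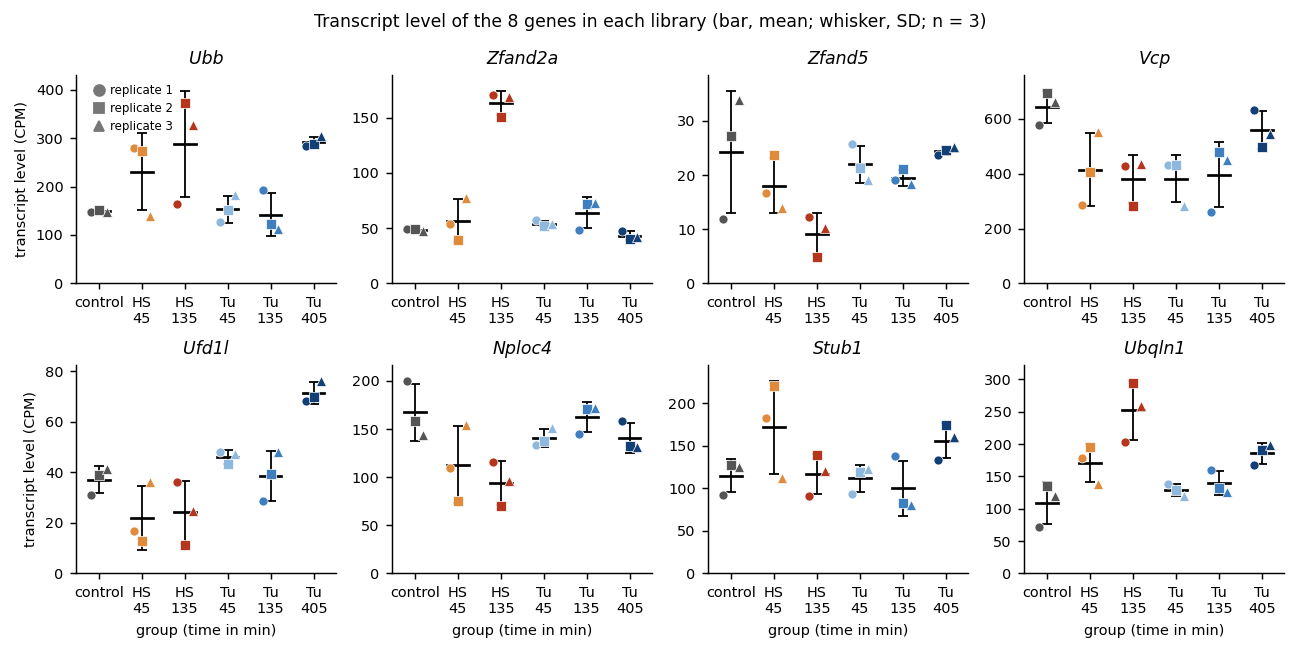
Transcript level in CPM (vertical axis, from 0) of each gene in the 6 groups (horizontal axis, time in min), with 1 point per library shaped by replicate number, a bar for the mean and a whisker for the SD (n = 3). The 3 Zfand2a points at 135 min of HS lie between 151.1 and 171 CPM, above all other libraries, and the 3 Ufd1l points at 405 min of tunicamycin lie above all others of that gene.

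Rps27a, which codes for ubiquitin joined to a ribosomal protein, was more widely spread than Ubb. Its control libraries had 212, 487 and 569.8 CPM and those at 45 min of HS 44.5, 39.8 and 307 CPM, where replicate 3 lay far above the others. It passed no test against control, with a log2 fold change at 405 min of tunicamycin of 0.50 (SE 0.322, adjusted p = 0.234, edgeR). From 135 to 405 min of tunicamycin Rps27a was induced 2.88-fold (log2 fold change 1.53, SE 0.214, adjusted p = 0.00121, edgeR), from 151, 248 and 204 to 489, 615 and 657 CPM. Processed copies of this gene could share its reads, which was not tested.

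Zfand2a had the largest increase of the 8 under HS. Control libraries had 48.98, 49.5 and 46.99 CPM, and at 135 min of HS the libraries had 171, 151 and 169 CPM, far above any other library of the series. The increase was 3.38-fold (log2 fold change 1.76, SE 0.179, adjusted p = 0.00792, edgeR). At 45 min of HS the values were 53.9, 38.96 and 77.4 CPM, spread on both sides of the controls, and the change did not pass the test (log2 fold change 0.23, adjusted p = 0.594, edgeR). Under tunicamycin Zfand2a had 56.98, 51.9 and 53.5 CPM at 45 min, 48.1, 71.4 and 72.8 CPM at 135 min and 47.6, 40.3 and 41.5 CPM at 405 min. None of these was called against control, but from 135 to 405 min Zfand2a fell 1.51-fold (log2 fold change -0.59, SE 0.185, adjusted p = 0.0336, edgeR). Compared directly at 135 min, Zfand2a was 2.50-fold higher under HS than under tunicamycin (log2 fold change 1.32, SE 0.216, adjusted p = 0.0404, edgeR). It was higher in 3 of 3 libraries than in all 3 of the other group, and 26.5% of all genes did not overlap there in either direction. The HS call against control was lost without HS 135 min replicate 3 (adjusted p = 0.0761) and without control replicate 2 or 3 (0.0788 and 0.086, edgeR), with log2 fold changes of 1.73 to 1.77. The direct comparison with tunicamycin passed in 0 of the 6 fits with 1 library removed (adjusted p = 0.05 to 0.219). The fall from 135 to 405 min passed in 1 of 6, the fit without tunicamycin 135 min replicate 1 (adjusted p = 0.00013), and not in the others (0.0568 to 0.121, edgeR). By mean level the group at 135 min of HS (164 ± 10.95) stood clear of 135 min of tunicamycin (64.1 ± 13.9), below which came 45 min of HS (56.7 ± 19.4), 45 min of tunicamycin (54.1 ± 2.63), control (48.5 ± 1.31) and 405 min of tunicamycin (43.2 ± 3.91 CPM). Of these lower neighbours only 45 min of tunicamycin and control did not overlap, as in 17.2% of all genes that were higher at 45 min of tunicamycin.

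Zfand5, the related AN1 gene, was the least abundant member and went the other way in value under HS. Its control libraries disagreed, at 11.8, 27.1 and 33.9 CPM, and at 135 min of HS it had 12.3, 4.94 and 10.2 CPM. The log2 fold change of -1.41 (SE 0.467) was the lowest of the 8 and did not pass the test (adjusted p = 0.0971, edgeR, and 0.0227 in DESeq2), and HS replicate 1 lay above control replicate 1. With the GC offset it was -1.04 (adjusted p = 0.0494, edgeR). The 9 tunicamycin libraries lay between 18.3 and 25.7 CPM, inside the range of the controls. Zfand5 has a transcript GC content of 43.6%, above that of 14.9% of the genes tested, and the control library with the lowest Zfand5 was replicate 1, which had a rho of 0.06 where replicates 2 and 3 had -0.54. In order of mean level came 405 min of tunicamycin (24.5 ± 0.735), control (24.3 ± 11.3), 45 min (21.96 ± 3.40) and 135 min of tunicamycin (19.5 ± 1.46), 45 min of HS (18.01 ± 5.06) and 135 min of HS (9.15 ± 3.78 CPM), and the last step was the one between neighbours that did not overlap.

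Vcp, the p97 gene, had its highest mean level in control cells, with 578, 693 and 661 CPM. At 45 and 135 min of HS the libraries had 285, 407 and 552 CPM and 429, 281 and 437 CPM, all below all controls. The same was seen at 45 min (433, 432 and 283 CPM) and 135 min (261, 479.6 and 449.8 CPM) of tunicamycin. Groups lay wholly below control in 12.8% of all genes at 45 min and 19% at 135 min of HS, and in 16% and 13.6% at 45 and 135 min of tunicamycin. Log2 fold changes in these 4 comparisons were -0.64, -0.75, -0.73 and -0.68, with SEs of 0.199 to 0.279, and none passed the test (adjusted p = 0.257, 0.0871, 0.0702 and 0.223, edgeR). Without control replicate 1 the value at 45 min of tunicamycin was called (adjusted p = 0.0378, edgeR). DESeq2 called it with all libraries (adjusted p = 0.00934), and edgeR with the GC offset called those at 45 min of tunicamycin (0.0298) and 135 min of HS (0.0359). At 405 min of tunicamycin Vcp had 634, 499 and 544 CPM, and the ranges again overlapped (log2 fold change -0.18, adjusted p = 0.319, edgeR). By mean level control (644 ± 59.7) was followed by 405 min of tunicamycin (559 ± 68.7), 45 min of HS (415 ± 134), 135 min of tunicamycin (397 ± 118), 45 min of tunicamycin (383 ± 86.4) and 135 min of HS (382 ± 87.9 CPM), each overlapping the next.

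Ufd1l and Nploc4, whose products form 1 complex, differed in their calls at 405 min of tunicamycin, a difference between genes that was not itself tested. Ufd1l had 31.1, 39.1 and 41.2 CPM in control cells and 68.2, 70.00 and 76.3 CPM after 405 min of tunicamycin, above every other library of the series. The increase was 1.96-fold (log2 fold change 0.97, SE 0.141, adjusted p = 0.000972, edgeR) and was called in 6 of 6 fits that left out 1 library, but not in 1 shared fit of all 6 groups (adjusted p = 0.0697, edgeR). Earlier it had 48.1, 43.1 and 47.2 CPM at 45 min, all above the controls as in 17.2% of all genes, and 28.5, 39.2 and 48.3 CPM at 135 min, neither of them called (adjusted p = 0.210 and 0.893, edgeR). Nploc4 had 200.2, 158 and 144 CPM in control cells and 159, 132 and 131 CPM at 405 min of tunicamycin, with overlapping ranges and a log2 fold change of -0.23 (SE 0.159, adjusted p = 0.263, edgeR). Its libraries had 133, 138 and 151 CPM at 45 min and 144, 171 and 172 CPM at 135 min of tunicamycin.

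Under HS both genes had lower values than in control cells and wide spreads. Ufd1l had 16.8, 12.7 and 36.4 CPM at 45 min and 36.2, 11.4 and 24.9 CPM at 135 min, each time reaching into the range of the controls (adjusted p = 0.289 and 0.315, edgeR). Nploc4 had 109, 75.5 and 155 CPM at 45 min and 116, 70.2 and 95.9 CPM at 135 min. At 135 min all 3 Nploc4 libraries lay below the controls, as in 19% of all genes. The log2 fold change of -0.83 (SE 0.248) did not pass the test (adjusted p = 0.0758, edgeR, and 0.047 in DESeq2) but did without HS 135 min replicate 1 (-1.01, adjusted p = 0.0344, edgeR). By mean level Ufd1l ran from 405 min of tunicamycin (71.5 ± 4.25), clear of the next, through 45 min (46.2 ± 2.66) and 135 min of tunicamycin (38.6 ± 9.89), control (37.1 ± 5.35) and 135 min of HS (24.1 ± 12.4) to 45 min of HS (21.9 ± 12.7 CPM). Nploc4 ran from control (167 ± 29.3) through 135 min (162 ± 15.6), 45 min (141 ± 9.34) and 405 min of tunicamycin (141 ± 15.4) and 45 min of HS (113 ± 39.8) to 135 min of HS (94.1 ± 23.1 CPM), each overlapping the next.

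The ratio of the per-length levels of Ufd1l and Nploc4 (RPKM over RPKM within a library, a measure chosen after the values were seen and not tested) is given as a description. It was 0.316, 0.504 and 0.583 in control cells and 0.875, 1.08 and 1.18 at 405 min of tunicamycin, where the transcripts of both partners stood at about equal RPKM. In the other groups it lay between 0.313 and 0.733, and the highest of these values were the 3 libraries at 45 min of tunicamycin, at 0.733, 0.638 and 0.635, with HS 135 min replicate 1 at 0.633.

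Stub1, the ligase of the chaperone system, had 92.3, 128 and 125 CPM in control cells and 134, 174 and 161 CPM at 405 min of tunicamycin. All 3 libraries lay above the controls, as in 29.2% of all genes, and the 1.38-fold increase just passed the test (log2 fold change 0.47, SE 0.164, adjusted p = 0.0463, edgeR). The call was lost with the GC offset (log2 fold change 0.25, adjusted p = 0.371), in the shared fit (0.44, adjusted p = 0.212), with a surrogate variable (0.37, adjusted p = 0.0871, edgeR) and without tunicamycin 405 min replicate 2 or 3 (adjusted p = 0.168 and 0.135) or control replicate 2 or 3 (0.0607 and 0.0774, edgeR). Stub1 has the highest transcript GC content of the 8, 61.4%, above 97.2% of the genes tested. At 45 min of HS it had 182, 220.4 and 113 CPM, high in the libraries with a rho of 0.59 and 0.56 and low in the one with -0.46, and its log2 fold change of 0.58 (adjusted p = 0.276, edgeR) became -0.21 with the GC offset. The remaining groups were at 91.5, 139 and 120 CPM at 135 min of HS, 93.2, 119 and 122 CPM at 45 min and 138, 83.1 and 79.9 CPM at 135 min of tunicamycin, all overlapping the controls. In order of mean level came 45 min of HS (172 ± 54.7), 405 min of tunicamycin (156 ± 20.5), 135 min of HS (117 ± 23.9), control (115 ± 19.7), 45 min of tunicamycin (112 ± 16.1) and 135 min of tunicamycin (100.2 ± 32.4 CPM), each overlapping the next.

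Ubqln1 was the member induced by both stresses. Control libraries had 72.03, 135 and 119.6 CPM, with replicate 1 well below the other 2. At 135 min of HS the libraries had 204, 294 and 259 CPM, a 2.32-fold increase (log2 fold change 1.21, SE 0.281, adjusted p = 0.0419, edgeR). At 405 min of tunicamycin they had 168, 191 and 198 CPM, a 1.74-fold increase (log2 fold change 0.79, SE 0.218, adjusted p = 0.0175, edgeR). In both groups all 3 libraries lay above all controls, as in 18.1% (HS) and 29.2% (tunicamycin) of all genes. The same was seen at 45 min of HS (178, 196 and 139 CPM, and 12.5% of all genes), where the change was not called (log2 fold change 0.65, adjusted p = 0.257, edgeR). Without control replicate 1 the log2 fold changes were 0.99 under HS (135 min) and 0.57 under tunicamycin (405 min). With the GC offset they were 1.46 and 0.89, both called (adjusted p = 0.0195 and 0.00505, edgeR). The HS call was lost without HS 135 min replicate 3 (adjusted p = 0.173) and without control replicate 1, 2 or 3 (0.056, 0.122 and 0.156), and the tunicamycin call without tunicamycin 405 min replicate 2 or 3 (0.0587 and 0.0626, edgeR). At 45 and 135 min of tunicamycin Ubqln1 had 138, 129.8 and 119.9 CPM and 161, 132 and 126 CPM, overlapping the controls. The order of mean levels was 135 min of HS (252 ± 45.6), clear of the next, then 405 min of tunicamycin (186 ± 15.6), 45 min of HS (171 ± 29.1), 135 min (139 ± 18.5) and 45 min of tunicamycin (129 ± 9.06) and control (109 ± 32.7 CPM), each overlapping the next. In bulk RNA a change in the share of cells that respond and a change in each cell cannot be told apart.

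The absence of calls at 45 min of HS changed when 1 library was left out. Without HS 45 min replicate 3, which had a rho of -0.46 against 0.59 and 0.56 in the other 2, 6 of the 8 genes were called, beside 45.4% of all genes (5786 of 12731). Ubb, Stub1 and Ubqln1 then had log2 fold changes of 0.90, 0.81 and 0.78 (adjusted p = 0.00396, 0.0163 and 0.0475, edgeR), and Vcp, Ufd1l and Nploc4 of -0.90, -1.33 and -0.86 (0.0151, 0.00409 and 0.023, edgeR). The part of the GC trend in these calls was not tested in the fit without that library. With the GC offset and all 3 libraries none of the 8 was called, beside 0% of all genes.

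**Figure D3:**
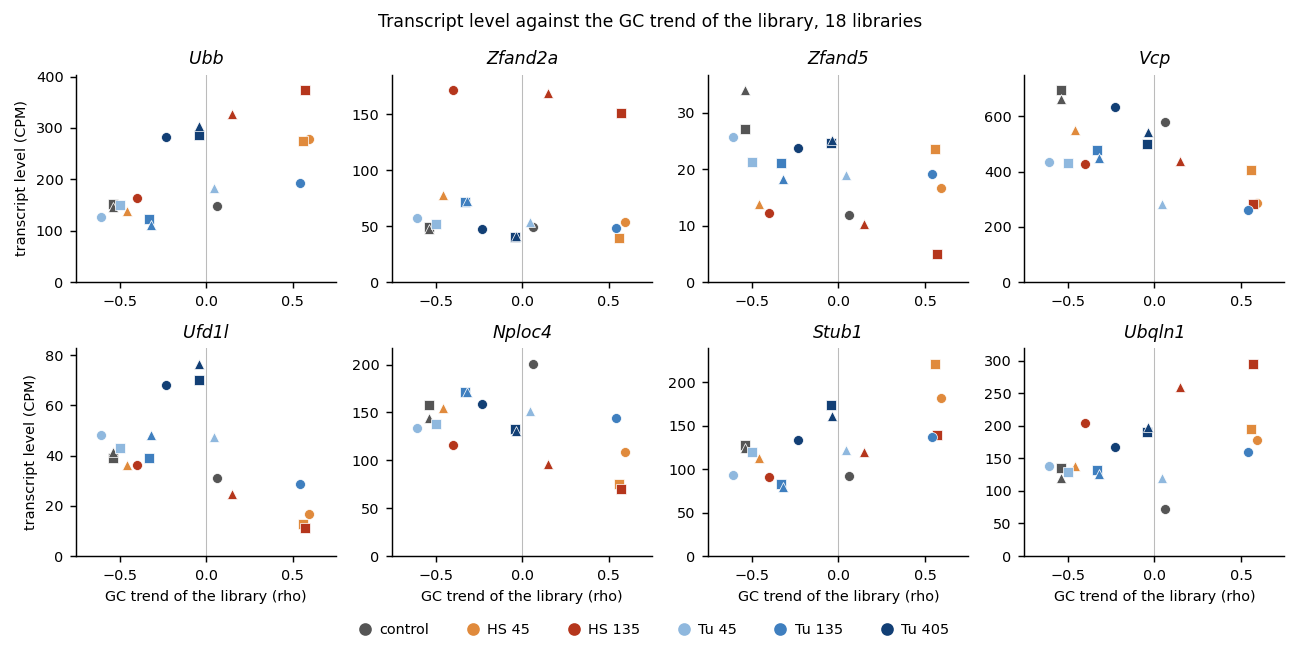
Transcript level in CPM (vertical axis) of each gene against the GC trend of the library (horizontal axis, Spearman's rho between transcript GC content and each gene's level relative to its mean over libraries), with 1 point per library, coloured by group and shaped by replicate number as in the plot of levels. Ubb and Stub1 points within the HS groups are higher where rho is higher, Ufd1l and Nploc4 points are lower there, and the 3 Zfand2a points at 135 min of HS lie close together although their rho runs from -0.40 to 0.57.

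Within a stress, later and earlier times were compared directly. From 135 to 405 min of tunicamycin 2 of the 8 genes were induced and 1 was repressed, beside 21.4% and 22.4% of all genes (43.7% in either direction). Ubb rose 2.02-fold (adjusted p = 0.00689) and Ufd1l 1.82-fold (adjusted p = 0.0101, edgeR), each kept without any 1 of the libraries. The shared fit of all 6 groups did not call Ufd1l over this step (log2 fold change 0.89, adjusted p = 0.0818, edgeR), and Zfand2a fell as given above. Stub1 and Ubqln1, called against control at 405 min, had log2 fold changes of 0.62 and 0.39 over this step that did not pass the test (adjusted p = 0.0616 and 0.0609, edgeR). Without tunicamycin 135 min replicate 1, which had a rho of 0.54 against -0.33 and -0.32, 7 of the 8 were called, beside 63.8% of all genes. Between 45 and 135 min none of the 8 was called under tunicamycin (0.291% of all genes) or under HS (0%), where at an unadjusted p under 0.05 there were 0 and 2 members (15.8% and 11.6% of all genes), and DESeq2 called 0 and 1 (4.85% and 3.17%). The largest difference there was Zfand2a under HS, with a log2 fold change of 1.49 (SE 0.275, adjusted p = 0.165, edgeR).

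The stresses were also compared with each other at matched times. At 45 min none of the 8 passed the test of HS against tunicamycin (0.204% of all genes called), with 1 member at an unadjusted p under 0.05 (24% of all genes) and 0 called by DESeq2 (8.85%). Ufd1l had the largest difference in value, at 16.8, 12.7 and 36.4 CPM under HS against 48.1, 43.1 and 47.2 CPM under tunicamycin, a log2 fold change of -1.08 (SE 0.390, adjusted p = 0.181, edgeR). Without HS 45 min replicate 3, 5 of the 8 were called, beside 55.7% of all genes, Ufd1l among them (log2 fold change -1.65, adjusted p = 0.000975, edgeR). At 135 min 1 of the 8 was called (2.12% of all genes), Zfand2a, and DESeq2 called 4, beside 9.87% of all genes. Zfand5, Nploc4 and Ubqln1 did not overlap between the stresses at 135 min, as did 26.5% of all genes, with log2 fold changes of -1.12, -0.82 and 0.83 (adjusted p = 0.132, 0.104 and 0.0841, edgeR).

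Other genes of the same pathways were taken from lists of p97 cofactors, AN1 zinc finger genes, shuttle and receptor genes, quality-control ligases, E1 and E2 enzymes and deubiquitinating enzymes, some of which share genes with each other and with the 8. The shares of all genes beside which their counts stand are 4.75% induced and 2.64% repressed at 135 min of HS, and 23.3% and 23.5% at 405 min of tunicamycin. In either direction the shares are 0% at 45 min of HS and 6.17% and 0.134% at 45 and 135 min of tunicamycin. Of 24 p97 cofactors tested, 11 were induced and 1 was repressed at 405 min of tunicamycin, with a median log2 fold change of 0.40 beside -0.01 for all genes, against 0 induced and 1 repressed at 135 min of HS. Derl2 and Derl1, which code for channel proteins of ERAD, changed most. Derl2 went from 11.8, 24.6 and 21.1 to 82.9, 111 and 111 CPM, 5.40-fold (adjusted p = 0.000265, edgeR), and Derl1 from 89.2, 74.3 and 79.01 to 362, 363 and 360.1 CPM, 4.54-fold (adjusted p = 1.70e-05, edgeR). Ubxn11, a UBX-domain gene, had 1.48, 0.929 and 1.10 and 2.29, 3.56 and 3.20 CPM, a 2.63-fold rise (adjusted p = 0.00314, edgeR). Yod1, a deubiquitinase that binds p97, was the gene repressed at both times, with log2 fold changes of -1.44 under HS (135 min) and -0.73 under tunicamycin (405 min) (adjusted p = 0.0341 and 0.0116, edgeR).

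**Figure D4:**
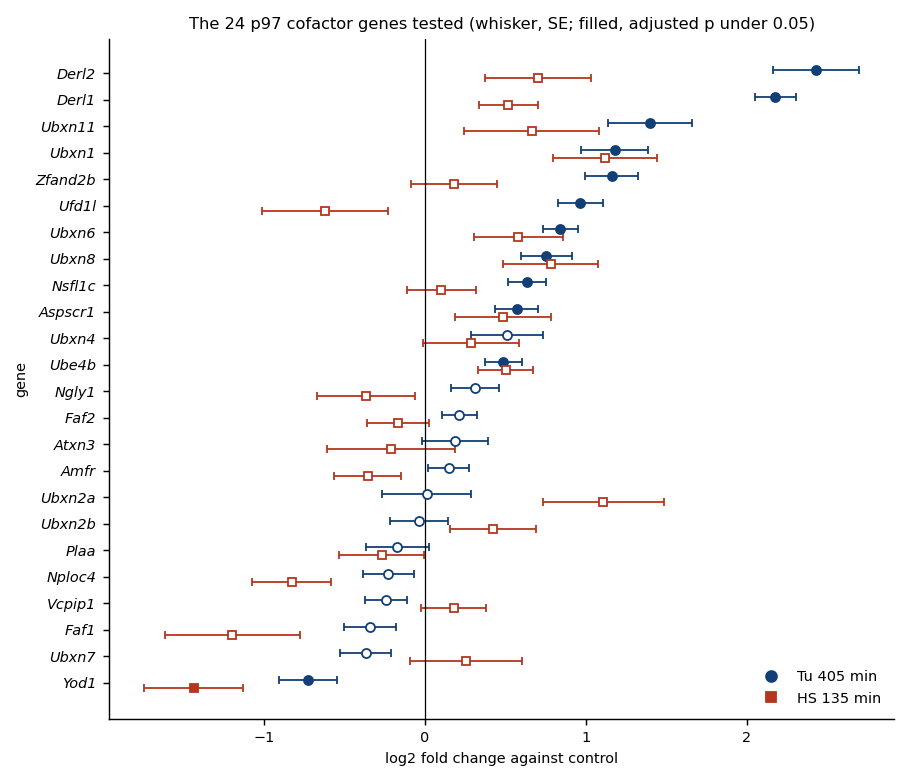
Log2 fold change against control (horizontal axis, whisker for the SE) of the 24 p97 cofactor genes tested (vertical axis, sorted by the value at 405 min of tunicamycin), at 405 min of tunicamycin (circles) and 135 min of HS (squares), filled where the adjusted p was under 0.05. Filled circles reach from 0.49 (Ube4b) to 2.43 (Derl2) on the right and -0.73 (Yod1) on the left, and the Ufd1l and Nploc4 points at 405 min lie at 0.97 and -0.23.

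Of the 7 AN1 zinc finger genes, 2 were induced and 1 repressed at 135 min of HS (Zfand2a and Zfand3, and Anubl1, now called Zfand4), and 3 were induced and 1 repressed at 405 min of tunicamycin. Zfand2b, which resembles Zfand2a, rose 2.24-fold at 405 min of tunicamycin, from 24.95, 17.96 and 18.7 to 41.6, 46.2 and 47.99 CPM (adjusted p = 0.00085, edgeR), whereas Zfand2a was not called there. Zfand3 rose to 159, 180.3 and 175 CPM from 98.3, 96.2 and 93.9 CPM, Zfand6 to 24.6, 18.9 and 21.9 from 13.7, 14.6 and 15.7 CPM, and Anubl1 fell 2.11-fold at that time (adjusted p = 0.000627, 0.0102 and 0.000922, edgeR). Of 11 shuttle and receptor genes, 1 was induced at 135 min of HS (Ubqln1), 2 at 45 min and 3 at 405 min of tunicamycin, and none was repressed. Sqstm1, the autophagy receptor p62, had 2794, 2921 and 2820 CPM at 405 min of tunicamycin against 744, 664 and 650.1 CPM in control cells, a 4.21-fold rise (adjusted p = 2.95e-05, edgeR). Optn, another autophagy receptor, rose 1.54-fold (adjusted p = 0.00981, edgeR), and both were also induced at 45 min, each in 1 of 6 fits with 1 library left out.

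Of 24 quality-control ligases, 5 were induced and 10 repressed at 405 min of tunicamycin, beside 23.3% and 23.5% of all genes, with a median log2 fold change of -0.16, and 1 was induced and 1 repressed at 135 min of HS. Syvn1 (Hrd1), the main ERAD ligase, was induced at both times. It had 126, 80.7 and 74.9 CPM in control cells, 1447, 1704 and 1861 CPM at 405 min of tunicamycin (18.1-fold, adjusted p = 1.90e-05, edgeR) and 284, 443 and 310 CPM at 135 min of HS (3.69-fold, adjusted p = 0.0185, edgeR). Rnf5 and Rnf126 rose 1.79-fold and 1.67-fold at 405 min, while the large cytosolic and nuclear ligases Trip12 and Huwe1 fell 2.66-fold and 2.31-fold (adjusted p = 0.00201 and 0.0125, edgeR). Huwe1 had 1493, 698 and 665 CPM in the control libraries, with replicate 1 far above the others.

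Of 30 E1 and E2 enzyme genes, 6 were induced and 1 repressed at 405 min of tunicamycin. Among them were Ube2e1 (2.36-fold), Ube2d2 (2.22-fold) and Ube2g2 (2.11-fold), the last an E2 that works in ERAD, and Uba1, the main ubiquitin-activating enzyme, fell 1.41-fold (adjusted p = 0.00231, 0.0141, 0.000331 and 0.0144, edgeR). Of 24 deubiquitinating enzymes, 1 was induced and 7 were repressed there, with Usp9x falling from 191, 118 and 118 to 41.03, 27.3 and 26.97 CPM, 4.42-fold (adjusted p = 0.000359, edgeR). At 135 min of HS each of these 2 lists had 0 induced and 1 repressed, Ube2j2 and Yod1. At 45 min of HS, as at 135 min of tunicamycin, no gene of the 6 lists was called, and at 45 min of tunicamycin 1 ligase (Nedd4l) and 2 receptors were. Among the genes named from the lists at 405 min of tunicamycin, each was called in at least 4 of 6 fits that left out 1 library, and those at 135 min of HS in 1 to 3 of 6.

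**Figure D5:**
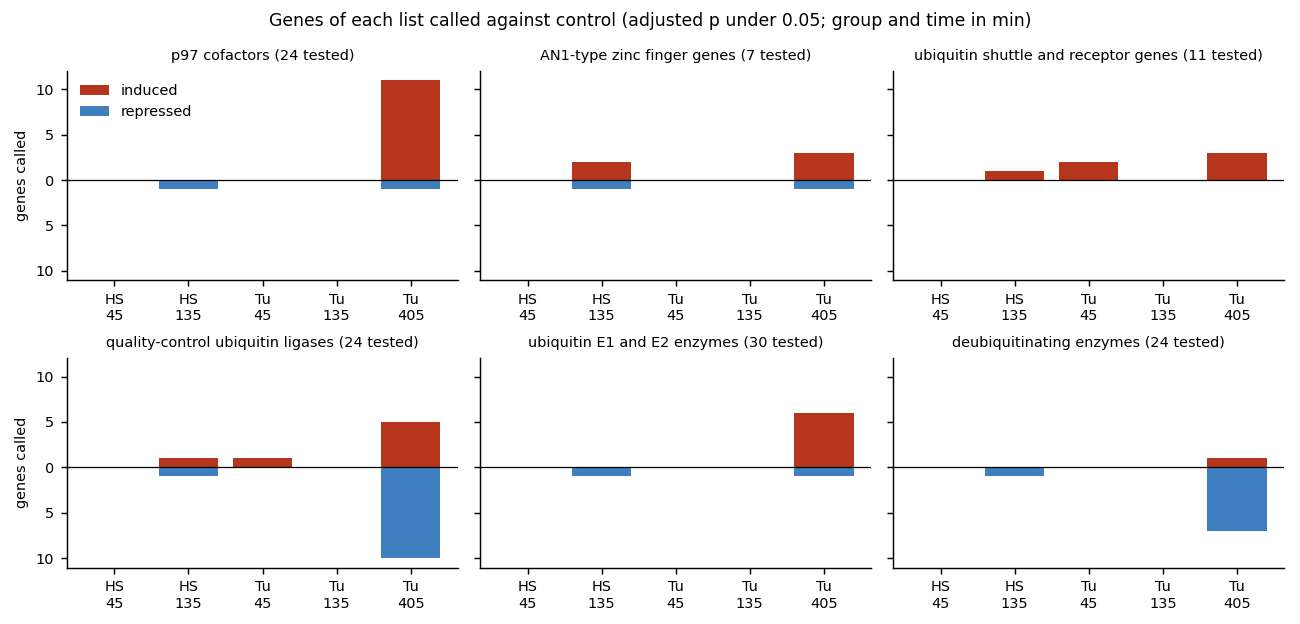
Number of genes induced (upward bars) and repressed (downward bars) at an adjusted p under 0.05 in each of 6 gene lists (panels, with the number of genes tested) for the 5 comparisons with control (horizontal axis, group and time in min). The p97 cofactor panel has 11 induced and 1 repressed at 405 min of tunicamycin, the ligase panel 5 and 10 and the deubiquitinating enzyme panel 1 and 7.

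The genes whose levels over the 18 libraries were most like those of a member were found by Pearson's correlation of log2(CPM + 1), as a description. For Ubb they were 1110007C09Rik (r = 0.956), Slc25a39 (0.955) and Nthl1 (0.951), and within groups, after each group's mean was taken off, r was still 0.937, 0.93 and 0.91. For Zfand2a they were Numb (0.937), Wnt2b (0.934) and Fam46a (0.928), where r over the 6 group means was 0.975, 0.972 and 0.972 and r within groups 0.554, 0.535 and 0.427. For Zfand5 they were Vps35 (0.958), Dhx36 (0.909) and Golt1b (0.904), with 0.935, 0.835 and 0.835 within groups. All genes share the libraries and their GC trends.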

How the data were processed

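Poly(A) RNA from 18 samples was sequenced on an Illumina HiSeq, and the authors used DNAnexus for alignment (mm9) and for counting over RefSeq genes. The aligner's and counter's versions are not given in the sources used here, and the 2 library preparation routes named in the methods are not tied to samples. The deposited estimated counts need not be whole (17.7 to 23.2% of low values were not) and were rounded. The deposited RPKM values were used for levels between genes. The deposited score (a Z-score) and scaled signal columns were not used. Results of some genes are not reported here.

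Genes with at least 1 read in all 18 libraries (12731 of 20207) were tested with edgeR 4.0.16 (quasi-likelihood test, TMM, Benjamini-Hochberg, threshold 0.05), each comparison fitted on its own 6 libraries. Standard errors came from the fold change and F. CPM used TMM factors over all 18 libraries, except for the floors of 3 reads, which were scaled by total reads only. Alternatives were DESeq2 1.42.0, its size factors, other filters, a shared fit, a surrogate variable (sva 3.50.0), a replicate block, and an offset from a lowess of level on transcript GC content (span 0.3). The scripts were tested on simulated data. Same-numbered libraries deviated together in all 3 pairs only for tunicamycin 135 min against control (correlations 0.342, 0.322 and 0.299). The labels state no pairing, and the values given for this comparison are from the fit without a replicate block. With the block none of the 8 members and 0 of all genes were called, against 17 genes without it. Vcp then had a log2 fold change of -0.73 (SE 0.178, adjusted p = 0.0927, edgeR), against -0.68 (SE 0.256, adjusted p = 0.223, edgeR) without it. Replicate 1 stood apart in GC trend in both groups, and its part in these correlations was not tested. Named genes were the 8 members, up to 3 called genes of each list, direction and comparison with control with the largest change and a mean of at least 50 reads in the higher group, and the 3 genes most like Ubb, Zfand2a and Zfand5. The members and lists were chosen with earlier results of these data known. Floors of 3 reads cover counting error only.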

Additional observations from a re-analysis of the deposited data

Results flagged for a closer look

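Zfand2a was marked for a difference between the stresses, tested directly. At 135 min it was higher under HS than under tunicamycin, with a log2 fold change of 1.32 (adjusted p = 0.0404, edgeR). It was higher in 3 of 3 libraries, where 26.5% of all genes did not overlap in either direction. The difference passed in 0 of the 6 fits with 1 library removed.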

How the results depend on the processing

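Of 660 alternative fits of 44 values of single genes, 570 kept direction and side of the threshold, 36 lost the call, 27 gained one and 27 reversed, 0 of these among called values. Where a setting moved the number of the 8 genes called, the cause was not tested. At 135 min of HS (2 called, 7.39% of all genes) DESeq2 and 1 fit of all 6 groups called 5 (17% and 25.5% of all genes). The GC offset called 4 (20.8%), a surrogate variable 7 (47.2%) and the replicate block 0 (0%). At 45 min of tunicamycin (0) DESeq2, the GC offset and the surrogate variable each called 1 (14.5%, 15.4% and 28.7% of all genes). At 135 min (0) the surrogate variable called 2 (17.4%). At 405 min (4) the shared fit called 2 (31.9%), while Stub1 also lost its call there with the surrogate variable (adjusted p = 0.0871, edgeR). Between the HS times (0) DESeq2 and the shared fit called 1 (3.17% and 7.11% of all genes) and the surrogate variable 3 (21.9%). From 135 to 405 min of tunicamycin (3) the surrogate variable called 5 (56%). For HS against tunicamycin at 135 min (1) DESeq2 called 4 (9.87% of all genes), the shared fit 5 (13.9%) and the GC offset 2 (11.4%). The surrogate variable called 6 there (37.5%) and the replicate block, alone or with the GC offset, 0 (0%). The replicate block, where the numbers do not pair the libraries, lost Zfand2a (log2 fold change 1.75, adjusted p = 0.139) and Ubqln1 (1.25, 0.143, edgeR) at 135 min of HS, and Zfand2a in the other 2 comparisons that called it (-0.57, adjusted p = 0.105, and 1.35, 0.396, edgeR). Leaving out 1 library gave 0 to 6 called at 45 min and 0 to 4 at 135 min of HS, then 0 to 1, 0 and 2 to 4 at 45, 135 and 405 min of tunicamycin, 0 between the HS times, 2 to 7 from 135 to 405 min of tunicamycin, and 0 to 5 and 0 for HS against tunicamycin at 45 and 135 min. In the same order, the genes called among all 12731 were 0 to 5786, 11 to 2467, 58 to 2499, 0 to 61, 4067 to 7897, 0 to 2, 3547 to 8126, 0 to 7087 and 0 to 364. With the GC offset, alone and with the replicate block, log2 fold changes that reversed were Zfand5 at 45 min of HS (0.22 and 0.18), Stub1 at 45 min (-0.21 and -0.16) and 135 min of HS (-0.47 and -0.42) and Zfand5 at 135 min of tunicamycin (0.00529 and 0.0509). With the surrogate variable Stub1 at 135 min of HS (-0.11), Stub1 at 45 min of tunicamycin (0.0505) and Nploc4 at 135 min of tunicamycin (0.0287) reversed. Leaving out 1 library turned Zfand2a at 45 min of HS (-0.0629 to 0.44), Stub1 at 135 min of HS (-0.11 to 0.17), Ubb (-0.0752 to 0.17), Zfand5 (-0.46 to 0.19) and Stub1 (-0.17 to 0.0853) at 45 min of tunicamycin, Ubb (-0.32 to 0.0845), Zfand5 (-0.63 to 0.0135), Ufd1l (-0.12 to 0.27) and Nploc4 (-0.13 to 0.13) at 135 min and Zfand5 at 405 min of tunicamycin (-0.29 to 0.33). Over all genes, alternatives called 0 to 3407 at 45 min of HS (0 in the test as reported), 0 to 6005 at 135 min (941), and 21 to 3657, 0 to 2219 and 4057 to 6726 at 45, 135 and 405 min of tunicamycin (786, 17 and 5960). With 0 genes called by edgeR at 45 min of HS, 1568 rose and 912 fell at an unadjusted p under 0.05 and DESeq2 called 386 and 65. All 8 genes were above 3 reads in every library, and the part of depth in the missing calls was not tested.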
